A study of Homo sapiens with 6 samples.

Results

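The genes described are 9 subunits of the TIP60/NuA4 complex that partner with MBTD1, measured in U2OS, a human osteosarcoma cell line. They were chosen by name, as the catalytic and scaffold subunits KAT5, EP400, TRRAP, EPC1, EPC2, BRD8, DMAP1, ING3 and MEAF6, and each had a row under its symbol among 34602 gene rows. Total RNA from 3 control samples and 3 MBTD1 knockout samples was hybridised to Illumina bead arrays, with 1 array per sample. The knockout was made with CRISPR/Cas9, and all cells were untreated and grown in DMEM with 10% FBS. The labels name the controls both "control KO" and control clones, and the design text has wild-type cells instead, so it is not known whether the controls are separate clones. Control clone 1 to 3 below stand for the samples titled control KO 1 to 3. The word clone does not settle whether they are separate clones. Nothing in the labels says that clones were handled on separate days, and the p-values therefore measure the spread between these arrays.

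TIP60/NuA4 is a large nuclear complex that acetylates histones H4 and H2A and exchanges the variant H2A.Z into chromatin. KAT5, also called TIP60, is its acetyltransferase, EP400 is the ATPase that carries out histone exchange, and TRRAP is a scaffold that activators such as MYC contact. EPC1 and its paralog EPC2 bridge the catalytic module to the rest of the complex, and MBTD1, a reader of methylated histone tails, joins the complex through EPC1.

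Values are log2 intensities after background correction with an added offset of 16 and quantile normalization, unless linear intensity is named. The detection p compares a signal with negative-control beads, and genes with a detection p under 0.05 on 3 or more arrays, 13145 in all, entered the test. Differences are knockout minus control from limma, and a gene was called at an adjusted p under 0.05. Over all tested genes 207 (1.57%) were called, 158 (1.2%) higher and 49 (0.373%) lower. Scaling each array to a common median in place of quantile normalization called 556 higher and 32 lower, and cyclic loess called 249 higher and 39 lower. The arrays had a median linear intensity of 84.7 to 87.2, a median of 20 to 22 beads per value, and 37.5% to 39.0% of genes above background. The number of arrays limits the precision.

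MBTD1, the targeted gene, measured 5.06, 5.05 and 5.05 in the controls and 5.17, 4.99 and 4.62 in the knockouts. Knockout clone 3 was low and knockout clone 1 lay above all controls, so the groups overlapped (limma adjusted p = 0.676; exact permutation p = 0.7, 2-sided, smallest possible 0.1). The sources used here do not place its probes relative to the edit, so its level does not check the labels. The cell type was checked against its markers. Of 8 mesenchymal and osteoblast markers, 5 were above background on all 6 arrays, among them VIM, COL1A1, SPARC and ALPL, while COL1A2 was above background on 0 arrays and RUNX2 on 1. Of 5 epithelial markers 3 were above background on 0 arrays, though EPCAM was above it on all 6. Of 7 blood and endothelial markers 5 were above background on 0 arrays, PTPRC and PECAM1 among them, while VWF was above it on 3 arrays and HBB on 1.

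Of the 9 subunits, 7 passed the filter and 0 were called, against 1.57% of all tested genes. At an unadjusted p under 0.05 in limma there was 1, DMAP1, against 20.4% of all tested genes. Of the 7 differences 4 were negative and 3 positive. Their median was -0.06, beside a median of -0.02 over all tested genes, and it was 0.04 after scaling to a common median, so no direction holds for the subunits together. In bulk RNA, fewer cells expressing a gene and less of its RNA per cell cannot be told apart. Standard errors of the differences lay between 0.109 and 0.159. EPC1 and EPC2 were above background on 0 of 6 arrays and were not tested.

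**Figure D1:**
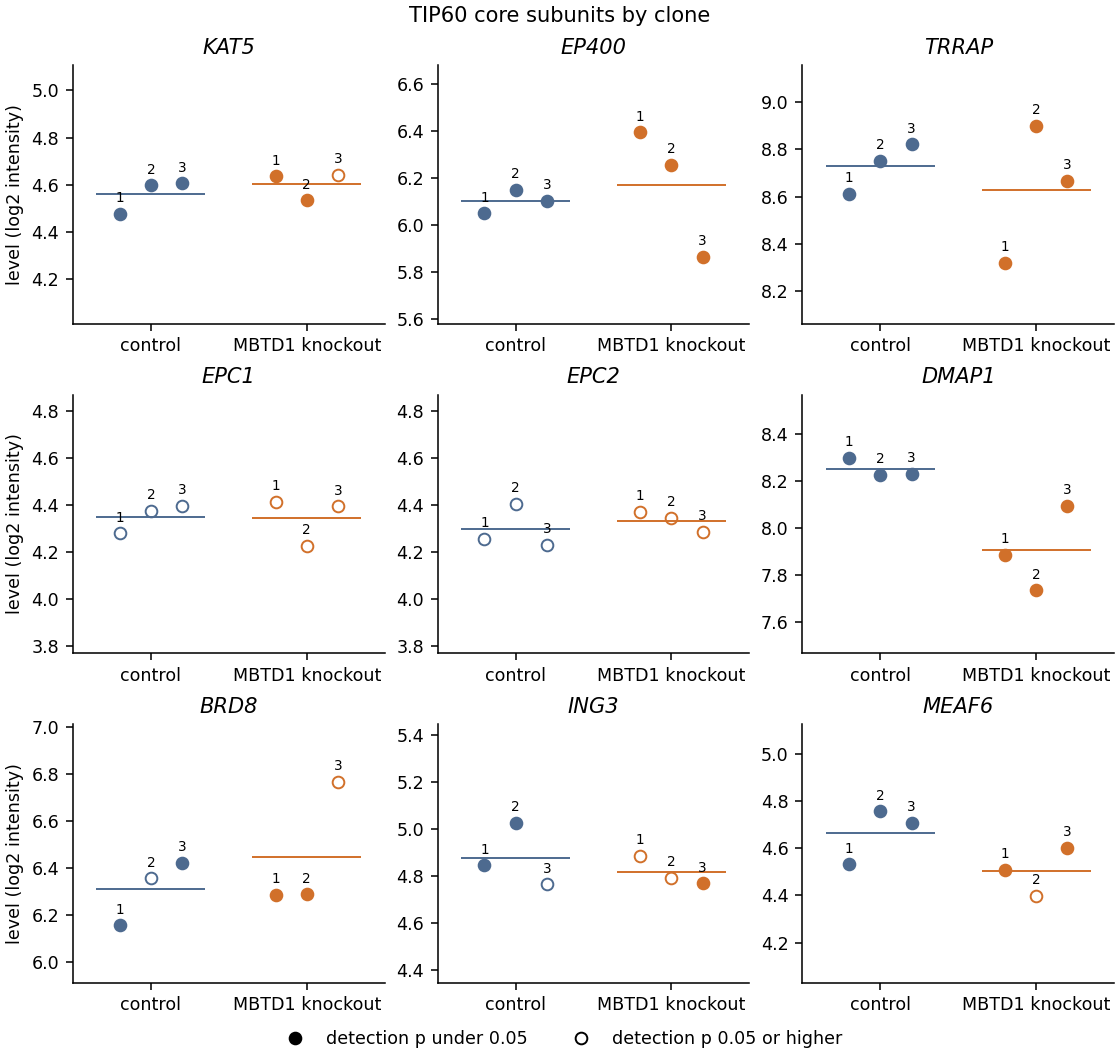
Level of each of the 9 subunits on the log2 scale (y axis, 1.1 log2 units in every panel, with its own position) in control clones (blue) and MBTD1 knockout clones (orange). Each point is 1 array, numbered as in the labels, filled where its detection p was under 0.05, and lines are group means. The groups are separate for DMAP1, whose lowest control lies at 8.23 and highest knockout clone at 8.09, and overlap for the other 8.

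Promoter sequence is shown for KAT5, the catalytic subunit, and DMAP1, the subunit with the smallest p. Each is the stretch of 250 bases before a RefSeq transcript start on GRCh38.p14, plus strand. Matches to CCGGAAGT, a sequence bound by ETS family factors, are in capitals. They are the promoter windows at chr11:65712002-65712251 and chr1:44213221-44213470.
KAT5: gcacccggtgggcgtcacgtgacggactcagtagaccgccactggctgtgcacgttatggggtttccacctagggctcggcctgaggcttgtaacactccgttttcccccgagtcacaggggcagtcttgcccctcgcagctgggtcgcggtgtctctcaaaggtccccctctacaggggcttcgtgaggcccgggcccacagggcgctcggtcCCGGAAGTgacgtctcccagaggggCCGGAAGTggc
DMAP1: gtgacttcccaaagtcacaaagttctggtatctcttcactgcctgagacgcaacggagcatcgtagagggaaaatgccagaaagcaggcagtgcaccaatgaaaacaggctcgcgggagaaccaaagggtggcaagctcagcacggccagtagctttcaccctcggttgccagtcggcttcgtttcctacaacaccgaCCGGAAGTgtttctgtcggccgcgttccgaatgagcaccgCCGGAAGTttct
Both windows held 2 matches on the strand shown. The motif was searched on both strands and was chosen after these sequences had been read. Its presence in them was therefore fixed by the choice, and the share of all windows given below is no test of enrichment. No match overlaps another. Windows were found for 7 of the 9 subunits (EPC1 has 2), and the motif was in those of KAT5 and DMAP1, against 3.42% of 35116 windows of this length. EP400, EPC1, EPC2, BRD8 and MEAF6 lacked these letters in their windows, and no other sequence was searched for. KAT5 and DMAP1, which share the motif, measured differences of 0.04 and -0.35.

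KAT5, on chromosome 11, gave a signal close to background. Its linear intensity was 87.9, 91.4 and 89.6 in the controls and 92.8, 90.5 and 92.7 in the knockouts, while the mean background per array lay between 81.7 and 84.2. After correction it measured 4.48, 4.60 and 4.61 in the controls and 4.63, 4.53 and 4.64 in the knockouts. The groups overlapped, with control clone 1 lowest of all. The difference was 0.04 with a 95% interval of -0.20 to 0.29 (limma adjusted p = 0.869). Because of the offset this scale is compressed near background: halving the corrected KAT5 signal of the controls would lower it by 0.25 log2 units. That size lies outside the interval over all 6 arrays, but inside it once control clone 1, control clone 3, knockout clone 1 or knockout clone 3 is left out, where the lower bounds were -0.29, -0.25, -0.26 and -0.27. The difference lay between 0.0012 and 0.0781 over the fits without 1 array. KAT5 was above background in all 3 control clones and in 2 of 3 knockout clones, knockout clone 3 having a detection p of 0.135 although its log2 level was the highest of the 6. KAT5 bead numbers were fractional, so this row averages more than 1 probe and its detection p does not follow its mean intensity.

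EP400, on chromosome 12, was above background on all 6 arrays. Control clones measured 6.05, 6.15 and 6.10, and knockout clones 6.39, 6.26 and 5.86. Knockout clones 1 and 2 lay above all controls and knockout clone 3 below them all. The difference was 0.07 with an interval of -0.27 to 0.41 (limma adjusted p = 0.837), and it was -0.04 without knockout clone 1. The SD was 0.05 among control clones and 0.27 among knockout clones. EP400NL, a gene like the amino-terminal part of EP400 and looked up after the values were seen, was above background on 0 arrays.

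TRRAP, on chromosome 7, was above background on all 6 arrays. It measured 8.61, 8.75 and 8.82 in the controls and 8.32, 8.90 and 8.67 in the knockouts. Knockout clone 1 was the lowest array and knockout clone 2 the highest. The difference was -0.10 with an interval of -0.46 to 0.26 (limma adjusted p = 0.773). It was 0.04 after scaling to a common median and 0.06 without knockout clone 1, so its direction was not settled.

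The linear intensity of TRRAP was 403 in knockout clone 1, 573 in knockout clone 2 and 486 in knockout clone 3, with standard errors over beads of 9.89, 26.6 and 18.3. That of EP400 was 151, 146 and 126 in the same order, with bead standard errors of 3.89, 4.66 and 2.50. The bead error covers 1 hybridisation and not the spread between samples. Knockout clone 1 was thus the lowest of the 3 for TRRAP, while knockout clone 3 was the lowest for EP400. Bead errors over the 9 subunits were between 1.37% and 4.65% of the intensity. The SD was larger among knockout than among control clones for 4 of the 7 tested subunits, EP400, TRRAP, BRD8 and DMAP1, and over all tested genes this held for 56.6%.

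**Figure D2:**
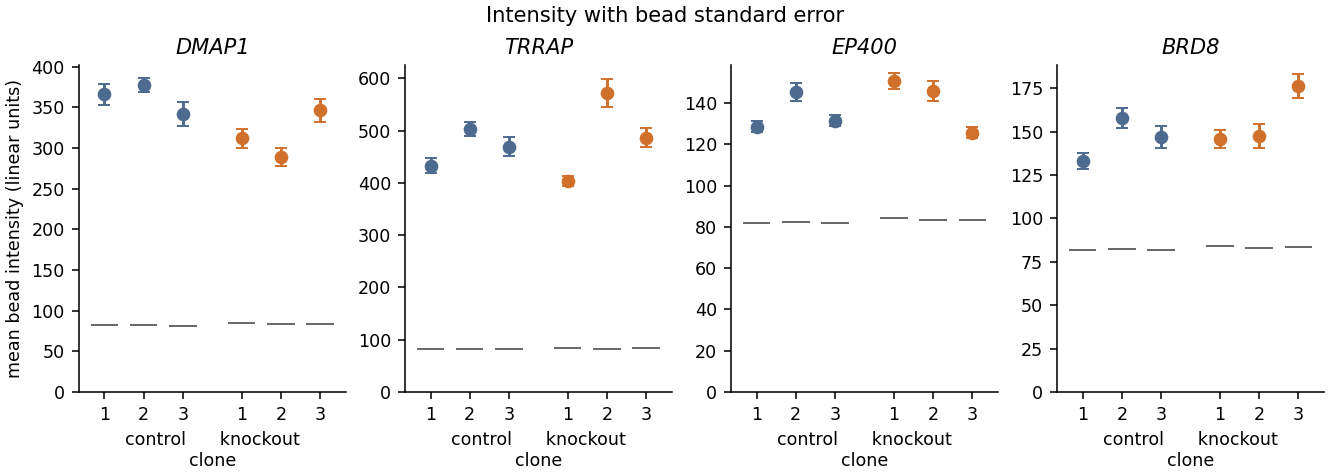
Mean bead intensity on a linear scale from 0 (y axis) of DMAP1, TRRAP, EP400 and BRD8 in each clone (x axis), with bars for the standard error over beads. Horizontal lines mark the background mean of each array, between 81.7 and 84.2. DMAP1 lay between 342 and 378 in control clones and between 289 and 346 in knockout clones, so that before normalization its groups just overlapped.

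The paralogs EPC1, on chromosome 10, and EPC2, on chromosome 2, could not be compared. EPC1 intensities were 84.0, 86.8 and 86.1 in the controls and 89.0, 83.5 and 88.1 in the knockouts, with detection p-values between 0.0662 and 0.429. For EPC2 they were 83.3, 87.5 and 82.2 in the controls and 88.1, 86.9 and 85.5 in the knockouts, with detection p-values between 0.0649 and 0.412. Both genes lay within a few units of the background on every array, so neither was above background and no fold is given. On the log2 scale, halving the corrected control signal would move EPC1 by -0.16 and EPC2 by -0.14.

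DMAP1, on chromosome 1, encodes a subunit shared with the SRCAP complex that was first described as a partner of the DNA methyltransferase DNMT1. It measured 8.30, 8.23 and 8.23 in the controls and 7.89, 7.73 and 8.09 in the knockouts. All knockout clones lay below all control clones, which was so for 1 of the 7 tested subunits and for 13.7% of all tested genes. Groups that did not overlap in either direction made up 25.9% of all tested genes. Its mean was 1.27-fold lower, or -0.35 on the log2 scale (standard error 0.12, interval -0.63 to -0.06), and DMAP1 was not called (limma adjusted p = 0.168). By its absolute difference DMAP1 stood at percentile 79.7 of all tested genes, and by p it ranked 1726 among the 13145. Control clones 1 and 2 differed by 0.07. The groups were also separate in the deposited log2 values, where the lowest control was 8.52 and the highest knockout clone 8.41. They overlapped in the linear intensities and after scaling to a common median, at 8.09 for the lowest control and 8.12 for the highest knockout clone. The row averages more than 1 probe, since its bead numbers were fractional.

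BRD8, on chromosome 5, is a bromodomain subunit. It measured 6.16, 6.36 and 6.42 in the controls and 6.29, 6.29 and 6.77 in the knockouts, with knockout clone 3 highest and the other knockout clones within the controls' range. The difference was 0.14 with an interval of -0.22 to 0.49 (limma adjusted p = 0.681), and -0.02 without knockout clone 3. Its detection p was 0.119 in control clone 2 and 0.0808 in knockout clone 3, at linear intensities of 158 and 176, the highest of each group. These intensities exceed 91.7 to 99.1, the lowest at which a row with an unaveraged detection p reached 0 on each array. BRD8 bead numbers were fractional, so the detection p of this averaged row does not follow its mean intensity.

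ING3, on chromosome 7, carries a PHD finger that binds methylated histone H3. It measured 4.85, 5.03 and 4.77 in the controls and 4.89, 4.79 and 4.77 in the knockouts. The knockout clones all lay within the controls' range to 2 decimals, and the difference was -0.06 with an interval of -0.33 to 0.20 (limma adjusted p = 0.810). ING3 was above background on 3 of 6 arrays, the least that the filter admits. It is an averaged row too: knockout clone 1 had a detection p of 0.0574 at an intensity of 97.4, and knockout clone 3 one of 0.0206 at 95.1. Its sign turned to 0.01 without control clone 2.

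MEAF6, on chromosome 1, is a small subunit shared with the complexes of other MYST acetyltransferases. It measured 4.53, 4.76 and 4.71 in the controls and 4.51, 4.40 and 4.60 in the knockouts. Knockout clones 1 and 2 were lowest, and knockout clone 3 lay inside the controls' range. The difference was -0.16 with an interval of -0.43 to 0.11 (limma adjusted p = 0.488), against a change of -0.30 for a halved corrected signal. The files hold another row for this gene under its older symbol C1orf149. That row measured 4.84, 5.26 and 4.94 in the controls and 4.88, 4.21 and 4.85 in the knockouts. Knockout clone 2 was not above background there (detection p of 0.523, 13 beads), while the other 5 arrays were. Its difference was -0.37 with an interval of -0.82 to 0.08 (limma adjusted p = 0.337). In both rows knockout clone 2 was the lowest array and control clone 2 the highest.

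**Figure D3:**
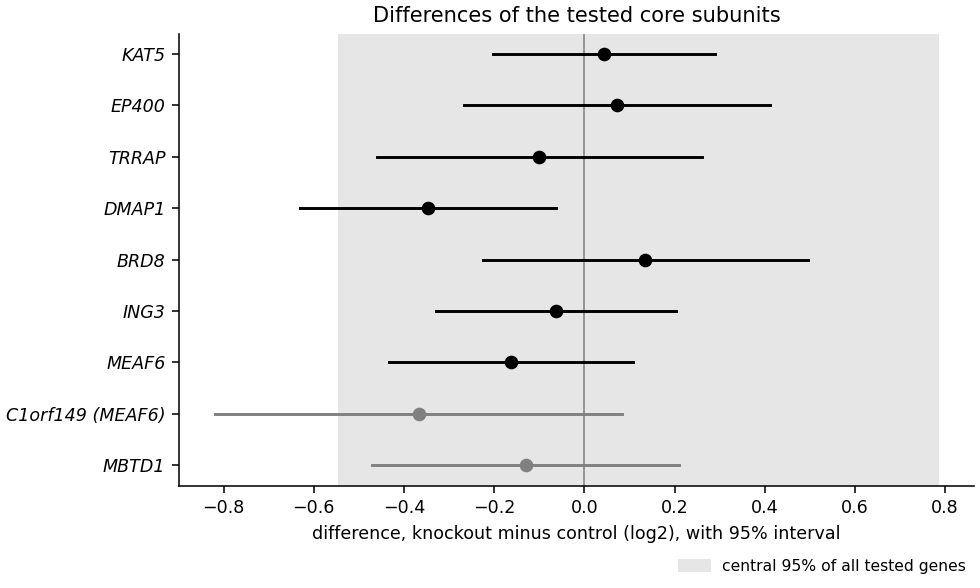
Difference between knockout and control clones on the log2 scale (x axis) for the 7 tested subunits, with 95% intervals from limma (n = 3 arrays a group). The grey rows are the C1orf149 row of MEAF6 and MBTD1, and the shaded band, from -0.55 to 0.78, holds the central 95% of all tested genes. The interval of DMAP1, -0.63 to -0.06, is the only one that leaves out 0, and DMAP1 did not pass after adjustment.

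Control clones 1 and 2 also differed in these genes. Control clone 1 lay below control clone 2 for 6 of the 7 tested subunits, by a median of -0.14 over the 7, against a median of -0.02 over all tested genes. The gap was -0.23 for MEAF6, -0.20 for BRD8, -0.18 for ING3 and -0.14 for TRRAP, and for these 6 it was larger in size than the difference between knockout and control. Wherever the 2 are set side by side, the gap compares single arrays and the difference compares means of 3 arrays. A gap is therefore the less precise value, and its larger size alone says little. The part of the gap in those differences was not tested. Spread between clones of a group was above the median of all tested genes, 0.17, for 3 of the 7 subunits, EP400, TRRAP and BRD8. KAT5, at an SD of 0.07, was at percentile 5.09. Rows near background are compressed on this scale.

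The genes whose pattern over the 6 arrays was nearest to KAT5 were EXOSC2, a subunit of the RNA exosome, ACER2, an alkaline ceramidase, and LOC100128291. Their root mean square distances from KAT5, each gene centred on its own mean, were 0.0168, 0.0234 and 0.0272 log2 units. As many as 1264 genes lay within 0.1 of KAT5, whose own SD over the 6 arrays was 0.0644, so the likeness is shared by many rows that vary little.

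Genes of neighbouring complexes gave 0 calls as well with all 6 arrays and quantile normalization, and the 4 that passed in another fit are named here. Of 9 TIP60 subunits that other complexes share, 9 were tested, 8 differences were negative and 1 was positive. Their median was -0.35, beside -0.06 for the core subunits, and it was -0.10 after scaling to a common median. Control clone 1 lay below control clone 2 by a median of -0.28 over this list, and the part of that gap was not tested. MORF4L2, a paralog of the chromodomain subunit MORF4L1, had the smallest p. It measured 8.76, 9.46 and 9.11 in the controls and 8.52, 8.33 and 8.68 in the knockouts, a difference of -0.60 (limma adjusted p = 0.122). The groups did not overlap, and control clones 1 and 2 differed by -0.70. Without control clone 1 the difference was -0.77 and passed (limma adjusted p = 0.0475). That fit called 578 of 13145 genes, against 207 with all 6 arrays.

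Of 4 SRCAP complex genes, which DMAP1 also serves, 3 were tested, 2 negative and 1 positive, with a median of -0.13 that lay between -0.18 and -0.02 over the alternatives, at -0.02 after scaling to a common median and -0.04 without control clone 2. ZNHIT1, a subunit with a zinc finger, differed by 0.51 (limma adjusted p = 0.199), while its control clones 1 and 2 differed by 0.79. Without control clone 2 its difference was 0.29 (limma adjusted p = 0.495). Of 18 SAGA genes, which share TRRAP, 17 had a row and 10 were tested. There 6 differences were positive and 4 negative, with a median of 0.11 that lay between 0.01 and 0.13 over the alternatives. TAF10, a subunit of SAGA and of the general factor TFIID, measured 7.77, 7.05 and 7.74 in the controls and 8.12, 8.34 and 8.33 in the knockouts. Its groups did not overlap, and its difference of 0.74 did not pass (limma adjusted p = 0.0847). It passed after scaling to a common median, at 0.81 (limma adjusted p = 0.0242). That scaling called 588 of 13145 genes, against 207 with quantile normalization. For TAF10 control clones 1 and 2 differed by 0.72. ENY2 and ATXN7L3, both of the deubiquitinating module and looked up after their values were seen, differed by 0.45 (limma adjusted p = 0.159) and 0.46 (limma adjusted p = 0.145). Control clones 1 and 2 differed by 0.56 for ENY2 and 0.55 for ATXN7L3. Without control clone 1 both passed, at 0.62 (limma adjusted p = 0.0385) and 0.61 (limma adjusted p = 0.0495). That fit called 578 of 13145 genes, against 207 with all 6 arrays.

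Of 14 other MYST acetyltransferases and their scaffolds, which use MEAF6 and ING proteins, 12 were tested, 7 positive and 5 negative, with a median of 0.05. BRPF3, a scaffold of MYST acetyltransferases, measured 7.09, 7.21 and 7.39 in the controls and 6.73, 6.83 and 6.66 in the knockouts. These groups did not overlap, at a difference of -0.49 (limma adjusted p = 0.0762), and its control clones 1 and 2 differed by -0.11. Of 7 recruiters and substrates of TIP60 all were tested, 4 positive and 3 negative, with a median of 0.01 that was 0.15 after scaling to a common median and lay between -0.03 and 0.15 over the alternatives. H2AFZ, which encodes the variant that EP400 deposits, measured 12.52, 12.71 and 12.67 in the controls and 12.28, 12.20 and 12.27 in the knockouts. Its difference of -0.38 did not pass (limma adjusted p = 0.106), and it was 0.15 after scaling to a common median. MYC, which recruits the complex, measured 8.74, 8.98 and 8.47 in the controls and 8.75, 8.28 and 7.50 in the knockouts. The groups overlapped and knockout clone 3 was lowest. The difference was -0.55 with an interval of -1.20 to 0.10 (limma adjusted p = 0.319). Without knockout clone 3 it was -0.21, with an interval of -0.68 to 0.26. Without knockout clone 1 it was -0.84, with an interval of -1.39 to -0.28 (limma adjusted p = 0.103). With the replicate number as a block the interval was -1.03 to -0.07 (limma adjusted p = 0.207). In all other alternatives the interval of MYC ran from a negative to a positive value.

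**Figure D4:**
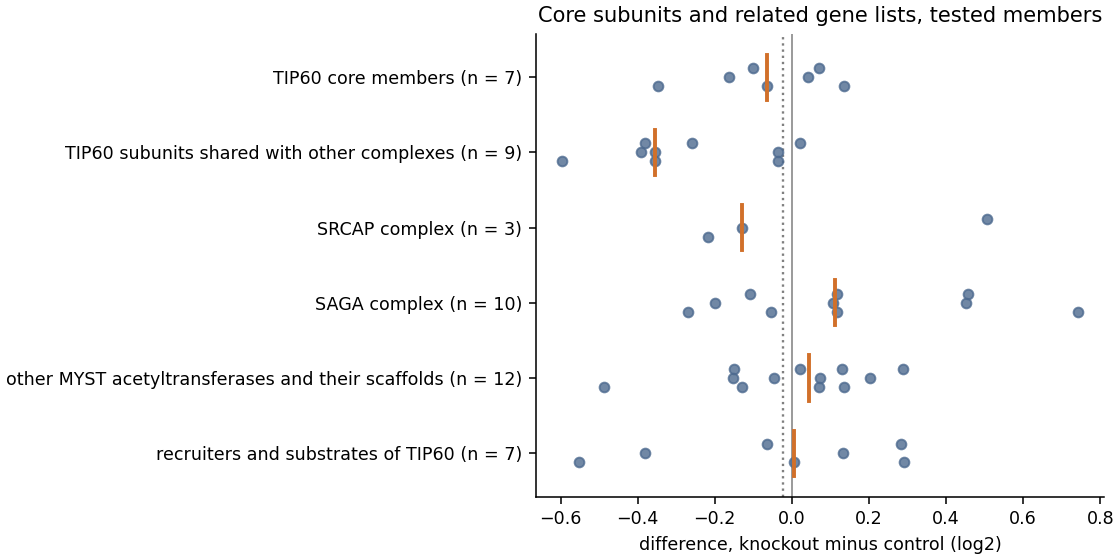
Difference between knockout and control clones on the log2 scale (x axis) of each tested gene (blue points) in 6 gene lists (y axis), with orange bars at list medians and a dotted line at the median of all tested genes, -0.02. Of the plotted genes 0 passed the threshold, and the shared TIP60 subunits had the lowest list median, -0.35, with quantile normalization.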

How the data were processed

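The authors deposited mean bead intensity per gene on a linear scale, with no background subtraction or normalization, beside a detection p-value, a bead standard error and a bead number, per the file headers. A deposited table of log2 values equalled a quantile normalization of log2 intensities to within 4.99e-09. The submitters' processing notes name lumi and limma without versions or roles. Columns were matched by the sample number in the labels. The 9 subunits, the related lists and the tests were chosen with earlier results of these data known.

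Background mean and SD were taken from detection p-values of the 27408 rows (79.0%) whose value is a whole multiple of 1 in 770 on all arrays, within 0.001 of a step. Normexp correction, an offset of 16, removal of 92 spike-in rows and quantile normalization followed (limma 3.58.1, R 4.3.3). Knockout and control were compared with lmFit and eBayes without covariates, 2-sided, with Benjamini-Hochberg adjustment over 13145 genes and intervals of 95%. Fits without 1 array kept the normalized values and the genes tested. The fit was tested on simulated data. Genes named are the 9 subunits, MBTD1, the gene with the smallest p in each related list, and the 3 nearest to KAT5. EP400NL, MYC, ENY2, ATXN7L3 and the markers were added to these after their values were seen. Older symbols were used where a row had no current one. Promoter windows are from RefSeq.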

Additional observations from a re-analysis of the deposited data

How the results depend on the processing

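The subunits gave 0 calls in every one of 16 alternatives run, 2 of which, scaling over the tested genes alone and the C1orf149 row for MEAF6, were chosen after seeing the data. Requiring detection on all 6 arrays left 3 subunits in the test. Where few or 0 genes were called over the whole table, as given below, 0 among the subunits is no separate result. The cause of the changes below was not tested. Signs turned without a call for EP400 (-0.0397) and TRRAP (0.0556) without knockout clone 1, for TRRAP at 0.0415 with a common median and 0.0216 with the median of tested genes, for BRD8 (-0.0245) and MBTD1 (0.0239) without knockout clone 3, for ING3 (0.0099) without control clone 2, and for H2AFZ at 0.1456 and 0.1256 with both scalings. Over the fits without 1 array EP400 lay between -0.0397 and 0.225, TRRAP between -0.2352 and 0.0556, BRD8 between -0.0245 and 0.2155 and ING3 between -0.1206 and 0.0099. Over all the alternatives, and not only those without 1 array, DMAP1 stayed negative, between -0.4407 and -0.2519 (limma adjusted p from 0.129 to 0.393). MBTD1 lay between -0.2511 and 0.0239. The 207 genes called over the whole table became 0 with the default background fit on all rows (limma, 2260 at an unadjusted p under 0.05), 64 with the deposited log2 table, 61 with an offset of 50, 588 with a common median, 390 with the median of tested genes and 4 without a filter. Leaving out 1 array gave 0 to 578, with 0 without control clone 3 (limma, 1919 at an unadjusted p under 0.05), 578 without control clone 1, 50 without control clone 2, 50 without knockout clone 2 and 51 without knockout clone 3. With the replicate number as a block 122 genes were called, 0 of them subunits. In the labels same-numbered clones share only a number. Correlations of their deviations were 0.0656, 0.0153 and 0.0187. Control clones 1 and 2 correlated best with the knockout clone of the same number, and control clone 3 with knockout clone 2. Whether same-numbered clones were handled together is not known. The planned ratio of EPC1 to EPC2 was not computed, since neither was above background on any array. Low signal over background limits KAT5, EPC1, EPC2, ING3 and MEAF6 most.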
